A study of Mus musculus with 6 samples.

Results

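Regulatory T cells are CD4+ T cells that restrain immune responses, and 9 genes tied to their identity and function were followed in cultures treated with an inhibitor of the kinase encoded by *Mapk13*. The 9 genes were *Foxp3*, *Ikzf2*, *Ikzf4*, *Lrrc32*, *Nrp1*, *Itgb8*, *Gpr83*, *Ebi3* and *Il10*. They were chosen by symbol, and all 9 were found among the 35602 genes of a count table and among the 34714 genes of a further pair of libraries. Foxp3 is the transcription factor that defines the lineage, and Ikzf2 (Helios) and Ikzf4 (Eos) are Ikaros family zinc finger proteins that work with it. At the cell surface, the products of *Lrrc32* (GARP) and *Itgb8* hold and activate latent TGF-β, Nrp1 is a semaphorin receptor and Gpr83 is a G protein-coupled receptor. *Ebi3* and *Il10* encode secreted mediators of suppression, a subunit of IL-35 and IL-27 and the cytokine IL-10, and both are also made by B cells and myeloid cells.

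CD4+ T cells from mouse spleen were stimulated through CD3 and CD28 and treated with MAPK13-inhibitors (MAPK13-IN-1) or with the solvent DMSO, with 3 libraries per group. The study asked how gene expression differed between the treatments. Replicates 2 and 3 of each group came from wild-type (WT) cells kept in RPMI medium with fetal bovine serum, and their labels give 17.1 µM inhibitor or DMSO, added after day 1. The series text instead describes 72 h of stimulation with the inhibitor present throughout, and the replicate 1 labels give neither genotype nor dose. The labels name CD4+ T cells, which the study's methods isolate with a kit and describe as naive when seeded, and no sorting of regulatory T cells is stated. B cell markers were also detected, so the genes were read in a mixture. A stranded mRNA kit was used for the replicate 1 pair, whereas replicates 2 and 3 were made with poly-T beads. Replicates 2 and 3 held 26874805 and 28487403 counts with DMSO and 33854760 and 32617702 counts with the inhibitor. Their values are given as CPM, counts relative to library size, scaled by TMM, a method that aligns libraries on the bulk of their genes. The replicate 1 pair holds normalized values that were read as FPKM (fragments relative to transcript length and library size). The unit was inferred, the depth is unknown and no test was run. The labels do not say whether the replicates came from separate cultures or animals, so the p-values measure only the spread between these samples, which may be technical.

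In replicates 2 and 3, expression of 6 of the 9 genes set MAPK13-inhibitors-treated cells apart from DMSO-treated cells, with p from the quasi-likelihood test of edgeR adjusted by Benjamini-Hochberg for all genes tested and a threshold of 0.05. This share stood beside 63.8% of all 16269 genes tested (10374 genes), so a call on its own was common in these libraries. *Foxp3*, *Ikzf4*, *Itgb8* and *Gpr83* were lower (4 of 9, beside 32.3% of all genes), and *Lrrc32* and *Ebi3* were higher (2 of 9, beside 31.5%). Scaling by library totals alone called 4302 of all genes lower and 6176 higher, in place of 5252 and 5122, and left the 4 and 2 of the 9 genes as they were. *Ikzf2*, *Nrp1* and *Il10* did not pass. All 9 had passed the filter on low counts. The CPM values of the 2 groups did not overlap for 8 of the 9 genes, beside 83.0% of all genes, and *Ikzf2* was the exception. By library totals alone *Nrp1* and *Il10* overlapped instead, and *Ikzf2*, at 37.2 and 34.2 against 38.0 and 39.2 CPM, did not. The median log2 fold change was −0.41 over the 9 genes and 0.01 over all genes tested, and the median absolute log2 fold change was 0.84 and 0.52. In the replicate 1 pair the picture differed, since 8 of the 9 genes were higher with the inhibitor, as were 60.2% of the tested genes listed there.

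*Foxp3* lies on chromosome X from 7573644 to 7595245 on the plus strand (GRCm38, GENCODE M21). Its counts were 1507 and 1648 with DMSO and 719 and 806 with the inhibitor. Scaled, these were 58.4 and 60.6 CPM with DMSO and 20.2 and 23.8 CPM with the inhibitor. Both inhibitor libraries were far below both DMSO libraries, and the gap exceeded the spread within either group. The means were 59.5 ± 1.52 and 22.0 ± 2.49 CPM (n = 2 per group, SD), 2.70-fold lower with the inhibitor. The log2 fold change was −1.44 (standard error 0.0926, 95% interval −1.64 to −1.23, edgeR quasi-likelihood adjusted p = 5.9e-07). In bulk RNA, fewer regulatory T cells and less *Foxp3* RNA per cell cannot be told apart.

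3 of the genes tested share part of the *Foxp3* span, so reads from the shared parts may be assigned to either gene. For the 2 tested genes on the minus strand this depends on strand use in the counting of replicates 2 and 3, which the sources used here do not give. *Flicr* runs on the plus strand like *Foxp3*, and strand would not separate it. *Gm36995*, annotated on the minus strand across all 21602 bases of the span, was not among the genes tested. *Flicr*, a noncoding transcript annotated across 7384 bases of the span, had 129 and 109 counts with DMSO and 58 and 24 with the inhibitor. It was lower (log2 fold change −1.93, standard error 0.323, edgeR adjusted p = 0.000414). *Ccdc22*, which runs on the minus strand and shares 1437 bases, had 483 and 503 counts with DMSO and 625 and 637 with the inhibitor. *Ccdc22* (log2 fold change −0.03, 95% interval −0.25 to 0.19) and *Ppp1r3f*, which shares 640 bases (−0.04, 95% interval −0.36 to 0.27), did not pass the test. *Flicr* thus fell with *Foxp3*, whereas the groups overlapped for *Ccdc22* and *Ppp1r3f*, and the part of shared reads in the *Foxp3* values was not tested. *Flicr* was also lower with the inhibitor in the replicate 1 pair, at 1.18 and 0.870 FPKM, where *Foxp3* was slightly higher.

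*Ikzf4*, whose product Eos binds Foxp3 and takes part in gene silencing, lies on chromosome 10 from 128630843 to 128645991 on the minus strand. Its values were 72.4 and 73.4 CPM in the DMSO libraries and 28.2 and 36.4 CPM in the inhibitor libraries. The groups were well separated, although the 2 inhibitor libraries lay further from each other than the 2 DMSO libraries. Its log2 fold change was −1.18 (standard error 0.107, 95% interval −1.41 to −0.94, adjusted p = 5.53e-06 from edgeR). *Ikzf2*, on chromosome 1 from 69531214 to 69687245 on the minus strand, encodes Helios, a marker of thymus-derived regulatory T cells. It was at 38.8 and 35.8 CPM with DMSO and at 36.3 and 37.7 CPM with the inhibitor. The inhibitor values sat inside the range of the DMSO values. Its log2 fold change of −0.01 (95% interval −0.19 to 0.17, adjusted p = 0.913 from edgeR) left room for changes of either sign up to these bounds, and its sign flipped with the scaling of the libraries. Whether *Ikzf2* and *Ikzf4* differ in their response was not tested. Of the 5 Ikaros family genes, these 2 included, 2 were lower and 0 were higher, and the other call was *Ikzf3* (Aiolos), which fell from 208 ± 3.07 to 117 ± 4.64 CPM (n = 2 per group, SD). *Ikzf1*, the founding Ikaros gene, was at 320 and 335 CPM with DMSO and at 316 and 308 CPM with the inhibitor (log2 fold change −0.07, 95% interval −0.19 to 0.05).

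**Figure D1:**
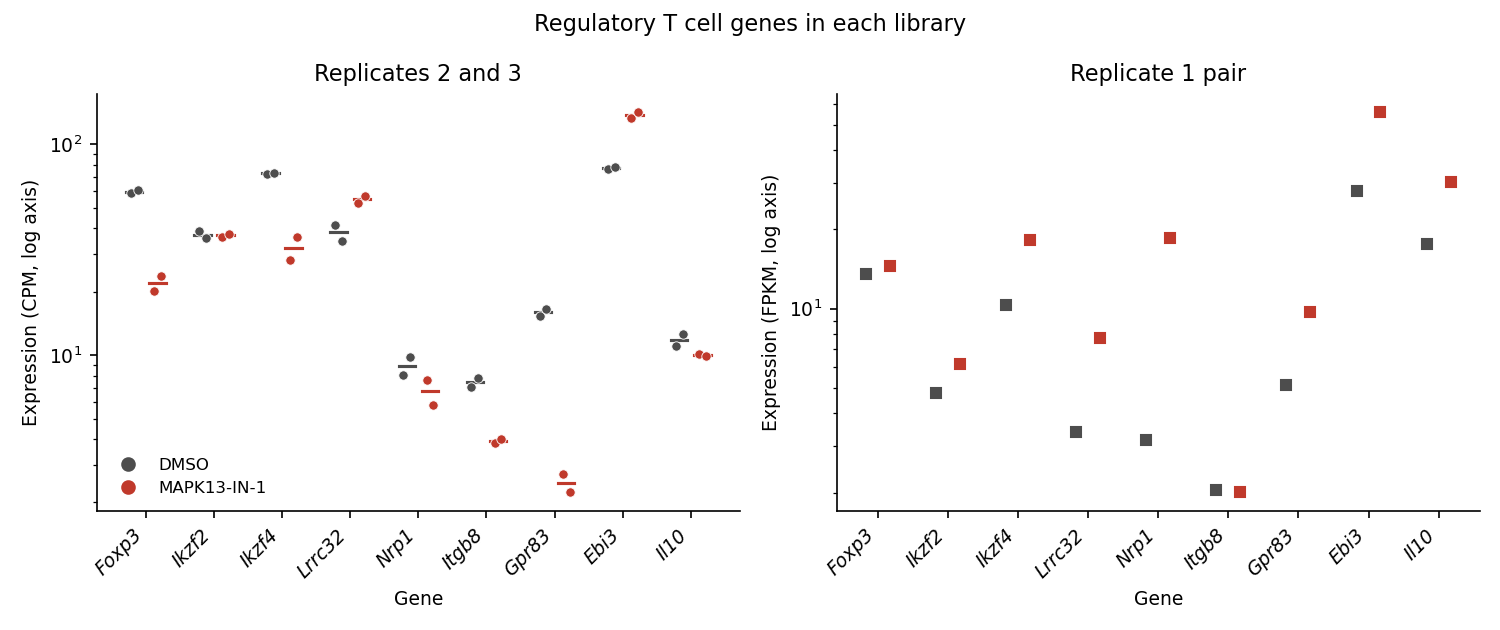
Expression of the 9 genes in each library on log axes, as TMM-scaled CPM in replicates 2 and 3 (left; points are libraries, short lines are group means) and as FPKM in the replicate 1 pair (right; 1 library per group). Gray is DMSO and red is MAPK13-IN-1: *Gpr83* falls from 15.4 and 16.5 to 2.73 and 2.24 CPM on the left but is at 5.14 and 9.74 FPKM on the right.

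The genes of TGF-β activation also split. *Lrrc32* lies on chromosome 7 from 98489283 to 98502181 on the plus strand and encodes GARP, the membrane protein that tethers latent TGF-β on activated regulatory T cells. It was at 41.4 and 34.9 CPM in the DMSO libraries and at 52.5 and 57.0 CPM in the inhibitor libraries. Both inhibitor libraries were higher, and the DMSO libraries differed more from each other than the inhibitor libraries did. The rise was 1.44-fold, a log2 fold change of 0.52 (standard error 0.0937, 95% interval 0.31 to 0.73, adjusted p = 0.000663 from edgeR). *Itgb8*, on chromosome 12 from 119158022 to 119238802 on the minus strand, encodes the integrin subunit that pairs with the product of *Itgav* to release active TGF-β. It had only 182 and 212 counts with DMSO and 136 and 135 with the inhibitor. Scaled, these were 7.06 and 7.79 CPM against 3.83 and 3.98 CPM, with no overlap between the groups. Its log2 fold change was −0.93 (standard error 0.159, 95% interval −1.28 to −0.57, adjusted p = 0.000487 from edgeR). The partner subunit *Itgav* was at 177 and 181 CPM with DMSO and at 177 and 183 CPM with the inhibitor, overlapping groups with a log2 fold change of 0.01 (95% interval −0.12 to 0.13).

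Around these 2 genes, the list of TGF-β ligands and activation genes had 11 genes tested, *Lrrc32* and *Itgb8* among them. Of these, 4 were lower and 6 were higher, and the median log2 fold change was 0.23. The ligand gene *Tgfb1* was at 206 and 223 CPM with DMSO and lower, at 94.8 and 105 CPM, with the inhibitor (log2 fold change −1.10), and *Furin*, encoding the protease that matures the ligand, fell from 625 ± 26.8 to 252 ± 20.8 CPM (−1.31; n = 2 per group, SD). *Nrros*, which encodes a tethering protein related to GARP, rose from 41.5 ± 0.0404 to 69.4 ± 4.04 CPM (0.74), alongside *Lrrc32*. *Tgfb2* was at 0.775 and 0.625 CPM with DMSO and higher, at 5.38 and 3.69 CPM, with the inhibitor (2.69), a difference that rested on 20 and 17 counts with DMSO. The membrane tether and its relative were thus higher, while the main ligand gene and the activating integrin subunit gene were lower. *Furin* went the other way in the replicate 1 pair, at 24.3 FPKM with DMSO and 66.8 with the inhibitor, and the median log2 ratio of the listed genes was 0.48 there.

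*Gpr83*, a receptor gene that marks regulatory T cells in mice, showed the largest fold difference of the 9 genes. It lies on chromosome 9 from 14860210 to 14870789 on the plus strand. Its counts were 397 and 449 with DMSO and 97 and 76 with the inhibitor. These were 15.4 and 16.5 CPM against 2.73 and 2.24 CPM, so every inhibitor value was a small part of every DMSO value. The gene was 6.40-fold lower (log2 fold change −2.68, standard error 0.153, 95% interval −3.02 to −2.34, adjusted p = 2.82e-07 from edgeR).

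*Nrp1* lies on chromosome 8 from 128358604 to 128503363 on the plus strand, and its product stabilizes regulatory T cells through the ligand Sema4a. It had 207 and 267 counts with DMSO and 271 and 197 with the inhibitor. Scaled, these were 8.02 and 9.81 CPM against 7.63 and 5.81 CPM. The groups did not overlap, but DMSO replicate 2 lay next to inhibitor replicate 2, and by library totals alone they overlapped, at 7.70 and 9.37 against 8.01 and 6.04 CPM. The log2 fold change was −0.41 (standard error 0.172, 95% interval −0.79 to −0.03) and the adjusted p of 0.0596 from edgeR missed the threshold. With no filter on low counts the adjusted p was 0.0337 and with the replicate number as a block 0.0229 in the same edgeR test, so the call depended on these settings. It also depended on the libraries used, in fits where the lone library of a group is assumed to vary like those of the other group. Without DMSO replicate 2 the adjusted p was 0.0188 and the log2 fold change −0.56, and without inhibitor replicate 2 they were 0.000617 and −0.62 in the same edgeR test, while without DMSO replicate 3 they were 0.33 and −0.26. Of 9 tested genes among *Nrp1* ligands and partners, 3 were lower and 4 were higher, with a median log2 fold change of 0.34. *Sema4a* fell from 63.8 ± 2.16 to 19.8 ± 4.13 CPM (n = 2 per group, SD), and *Plxna3*, a plexin coreceptor gene, fell from 25.4 ± 0.432 to 7.69 ± 0.639 CPM. *Nrp2*, the paralog, rose from 1.90 ± 0.222 to 4.95 ± 1.08 CPM. The replicate 1 pair had *Sema4a* at 15.6 FPKM with DMSO and higher, at 32.4, with the inhibitor, and a median log2 ratio of 0.01 over the list.

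*Ebi3*, on chromosome 17 from 55952640 to 55957022 on the plus strand, was at 76.1 and 77.8 CPM in the DMSO libraries and at 133 and 142 CPM in the inhibitor libraries. All inhibitor values were above all DMSO values, with little spread in either group. The rise was 1.79-fold, a log2 fold change of 0.84 (standard error 0.0627, 95% interval 0.70 to 0.98, adjusted p = 1.54e-06 from edgeR). *Gm16712*, an antisense transcript, shares 2252 bases of the *Ebi3* span, and it had 24 and 13 counts with DMSO and 486 and 407 with the inhibitor (log2 fold change 4.19). Without stated strand use, reads of *Ebi3* and *Gm16712* cannot be told apart in the shared part. *Ebi3* itself had 1963 and 2116 counts with DMSO and 4733 and 4799 with the inhibitor. In the stranded replicate 1 pair, *Gm16712* was at 0.924 FPKM with DMSO and 0.178 with the inhibitor, while *Ebi3* was higher with the inhibitor there too.

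Of the IL-12 family subunits and receptors, 9 genes were tested, *Ebi3* included, and 4 were lower and 3 higher. Their median log2 fold change was −0.01. *Il23r*, among the 3 higher, had 4 and 3 counts with DMSO and 18 and 16 with the inhibitor. It passed the filter on low counts through the inhibitor libraries alone. With at least 10 counts asked of every library, 2 genes of the list were higher. In the replicate 1 pair the median log2 ratio was 0.28 over all 10 genes of the list, the untested *Il12b* included. *Il12a*, which encodes the partner of Ebi3 in IL-35, rose with it, from 1.94 ± 0.0465 to 5.12 ± 0.199 CPM (n = 2 per group, SD), at 51 and 52 counts with DMSO. *Il27ra*, a receptor gene for the other Ebi3-containing cytokine, fell from 43.2 ± 3.92 to 12.3 ± 1.34 CPM. *Il23a*, encoding a subunit of IL-23, fell from 30.5 ± 2.67 to 1.43 ± 0.475 CPM (log2 fold change −4.41). *Il27*, the other subunit of IL-27, was at 17 and 24 counts with DMSO and 36 and 39 with the inhibitor and did not pass the test (log2 fold change 0.48, adjusted p = 0.243 from edgeR); it was named after its values were seen.

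*Il10* lies on chromosome 1 from 131019845 to 131024974 on the plus strand. It had 284 and 341 counts with DMSO and 359 and 337 with the inhibitor. Scaled, these were 11.0 and 12.5 CPM against 10.1 and 9.94 CPM, a narrow gap without overlap. The log2 fold change was −0.23 (95% interval −0.51 to 0.04, adjusted p = 0.126 from edgeR), so a difference in *Il10* was not established, and the interval allows a fall to its lower bound. With libraries left out in turn, the log2 fold change of *Il10* ranged from −0.335 to −0.144. By library totals alone the groups overlapped, at 10.57 and 11.97 CPM against 10.6 and 10.33 CPM. Of 16 genes that regulate or receive IL-10, 10 were lower and 2 were higher, the latter count being 4 without inhibitor replicate 3, with upper quartile or library total scaling, or with at least 10 counts asked of every library. The median log2 fold change was −0.52, and in the replicate 1 pair these genes had a median log2 ratio of 0.40. *Maf*, encoding a transcription factor that drives *Il10*, fell from 38.0 ± 2.25 to 7.85 ± 0.0888 CPM (n = 2 per group, SD; log2 fold change −2.28). *Nfkbiz* rose from 93.8 ± 5.50 to 150 ± 2.09 CPM and *Stat3* from 617 ± 15.2 to 776 ± 26.3 CPM. *Prdm1*, encoding Blimp-1, was at 26.9 and 28.3 CPM with DMSO and at 33.7 and 30.7 CPM with the inhibitor, and its adjusted p of 0.0526 from edgeR missed the threshold (log2 fold change 0.22, 95% interval 0.02 to 0.42). The receptor gene *Il10ra* had overlapping groups, 135 and 133 CPM against 121 and 136 CPM (log2 fold change −0.06, 95% interval −0.21 to 0.09). *Il10* thus did not pass the test while *Maf* was lower in both inhibitor libraries.

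In the replicate 1 pair, where each group was 1 library, *Foxp3* was at 13.6 FPKM with DMSO and 14.6 with the inhibitor. *Ikzf4* was at 10.3 and 18.2 FPKM and *Ikzf2* at 4.79 and 6.15 FPKM in the same order. None of the 3 transcription factor genes was lower with the inhibitor, and *Foxp3* hardly moved. *Nrp1* stood at 3.17 FPKM with DMSO and 18.6 with the inhibitor, a ratio of 5.85 and the widest of the 9 genes. *Gpr83* was at 5.14 and 9.74 FPKM, and *Il10* at 17.6 and 30.2 FPKM. For these genes the inhibitor library was the higher, opposite to the TMM-scaled values of both pairs of replicates 2 and 3. By library totals alone, *Nrp1* and *Il10* were slightly higher with the inhibitor in the replicate 2 pair. *Ebi3* was at 28.1 and 55.6 FPKM, *Lrrc32* at 3.40 and 7.72 FPKM and *Itgb8* at 2.04 and 2.01 FPKM. *Ebi3* and *Lrrc32* were therefore higher with the inhibitor in both sets of libraries, and *Itgb8* differed by little.

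On the log2(FPKM + 1) scale, which understates the change of genes with low values, the median log2 ratio of the 9 genes was 0.76, beside 0.07 for the tested genes listed there. Of the 6 genes called in replicates 2 and 3, 3 had the same sign in the replicate 1 pair (*Lrrc32*, *Ebi3* and *Itgb8*), beside 65.9% of all called genes found in both tables. The sign of *Itgb8* rested on a log2 ratio of −0.01 and became 0.02 when both libraries were rescaled to the same sum. The 2 sets of libraries differ in kit, in normalization and in their levels of B cell markers, given below, and with 1 library per group in the replicate 1 pair the difference between the sets was not tested.

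**Figure D2:**
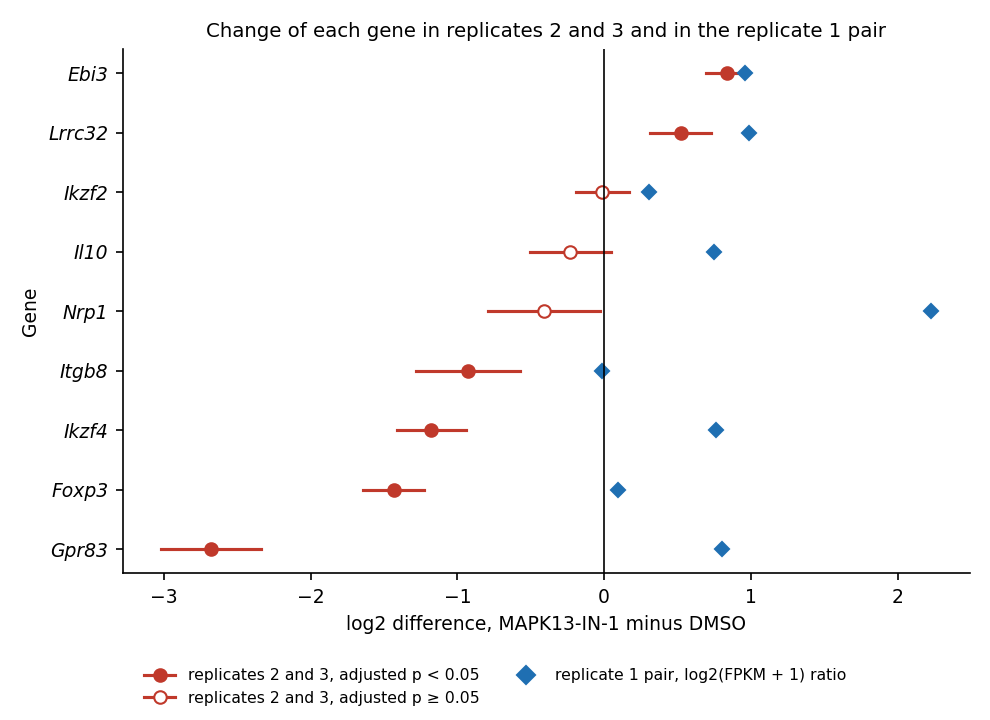
Log2 difference of MAPK13-IN-1 minus DMSO for each gene in replicates 2 and 3 (circles with 95% intervals, filled where the adjusted p is under 0.05) and in the replicate 1 pair (diamonds, log2(FPKM + 1), no interval). The circles run from −2.68 for *Gpr83* to 0.84 for *Ebi3*, whereas the diamonds run from −0.01 for *Itgb8* to 2.23 for *Nrp1*.

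Levels of the 9 genes were ordered per length, as CPM per kilobase of annotated exons. With DMSO, *Ebi3* led at 66.7 ± 1.03 CPM per kb (SD, n = 2), followed by *Foxp3* (12.8 and 13.2) and *Ikzf4* (12.1 and 12.2). *Il10* (8.41 and 9.57) and *Lrrc32* (8.83 and 7.45) overlapped, as did *Ikzf2* (3.34 and 3.08) and *Gpr83* (3.02 and 3.24). *Nrp1* at 0.911 ± 0.129 and *Itgb8* at 0.671 ± 0.0471 CPM per kb were the lowest. With the inhibitor, *Ebi3* stayed first at 119 ± 5.09 CPM per kb and *Lrrc32* moved up to second place at 11.7 ± 0.691. *Il10* came next at 7.72 and 7.59 CPM per kb. *Ikzf4* (4.70 and 6.07) and *Foxp3* (4.42 and 5.19) overlapped below it, and *Gpr83* dropped under *Nrp1*, to 0.488 ± 0.0680 against 0.687 ± 0.131. The replicate 1 pair placed *Ebi3* first and *Itgb8* last by FPKM in both libraries, with *Il10* second, and there *Nrp1* moved from eighth place with DMSO to the third with the inhibitor. Both scales thus put *Ebi3* highest and *Itgb8* lowest in all 6 libraries.

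Markers of the cells in the cultures also differed between the groups in replicates 2 and 3. Of the 12 CD4 T cell markers, 11 were listed and tested, and 9 were lower and 0 were higher, with a median log2 fold change of −1.20. Summed as CPM of library totals, these markers were at 2139 and 2178 with DMSO and at 1341 and 1458 with the inhibitor, and *Cd5*, the most abundant by its mean over the 4 libraries, went from 409 and 419 to 162 and 208. *Cd4* itself was at 263.6 and 263.2 CPM against 279.9 and 294.1 CPM of library totals, higher with the inhibitor without overlap and there above *Cd5*. With TMM scaling *Cd4* was at 274.6 and 275.5 against 266.8 and 282.9 CPM, overlapping groups with a log2 fold change near 0 (95% interval −0.12 to 0.12), whereas *Cd3e* fell from 104 ± 1.52 to 40.3 ± 7.68 CPM (n = 2 per group, SD). Of 10 B cell markers tested, 7 were higher and 1 was lower, and their sum, again of library totals, was 1068 and 1041 CPM with DMSO and 1366 and 1377 CPM with the inhibitor, led on the mean by *Pax5* at 171 and 161 against 276 and 281 CPM. In the replicate 1 pair the CD4 T cell markers summed to 1604 FPKM with DMSO and 1599 with the inhibitor, and the B cell markers to 47.2 and 35.0 FPKM. *Cd5* had the highest mean of the former, at 262 and 193 FPKM, although *Thy1* was above it with the inhibitor at 213 FPKM, and *Cd79b* led the latter at 16.4 and 14.0 FPKM. Beside the CD4 T cell markers, the B cell markers thus stood far lower in the replicate 1 pair than in replicates 2 and 3, although the units differ. The part of these shifts in the values of *Foxp3* and the other 8 genes was not tested.

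The remaining marker lists were lower in level, and each is given as its sum in the 4 libraries of replicates 2 and 3, in CPM of library totals, beside calls from the TMM-scaled fit, with the gene of the highest mean named as leading. Dendritic cell markers (4 of 7 tested higher, 1 lower) were at 108 and 110 CPM with DMSO and 138 and 130 CPM with the inhibitor, led by *Bst2*, with *Cd209a* at 0 counts in every library. Among the 4, *Xcr1* had 0 and 4 counts with DMSO and 27 and 16 with the inhibitor. It too passed the filter on low counts through the inhibitor libraries alone. Plasma cell markers (3 of 5 higher, 2 lower) were at 250 and 237 against 260 and 271 CPM, led by *Mzb1*, with *Tnfrsf17* at no more than 2 counts. With TMM scaling the plasma cell sums overlapped, at 260.0 and 248.2 against 248.3 and 261 CPM, and no other list changed in order or overlap. Macrophage and monocyte markers (6 of 8 higher, 1 lower) were at 21.88 and 19.97 against 49.3 and 40.68 CPM, led by *Cd68*. Among the 6, *C1qb* had 2 and 0 counts with DMSO and 14 and 12 with the inhibitor. It passed the filter on low counts through the inhibitor libraries alone. By their sums, myeloid markers were higher with the inhibitor but far below the T and B cell markers. CD8 T and NK cell markers (3 of 6 lower, 1 higher) were at 20.02 and 19.38 against 13.79 and 16.03 CPM, led by *Cd8b1*. Endothelial and stromal markers (1 of 5 higher, 1 lower) were at 42.3 and 40.8 against 84.2 and 79.6 CPM, led by *Pecam1*, with *Emcn* and *Col3a1* at 0 counts. Megakaryocyte and platelet markers (3 of 3 higher) were at 9.67 and 8.85 against 19.7 and 20.9 CPM, led by *Itga2b*, with *Ppbp* and *Treml1* at 0 counts and *Pf4* at no more than 2. Of the 3 called, *Gp9* had 4 and 2 counts with DMSO and 34 and 20 with the inhibitor. *Gp5* had 2 and 5 against 48 and 55, and both passed the filter on low counts through the inhibitor libraries alone. Erythroid markers (5 of 6 higher) were at 7.52 and 7.09 against 94.2 and 66.8 CPM, the widest gap in proportion, led by *Hbb-bs*. Within the replicate 1 pair, CD8 T and NK cell markers summed to 5.0 FPKM with DMSO and 16.03 with the inhibitor, dendritic cell markers to 77.7 and 126 FPKM and macrophage and monocyte markers to 7.92 and 11.5 FPKM. These lists were higher there with the inhibitor, for CD8 T and NK cells opposite to replicates 2 and 3. Megakaryocyte markers were at 1.01 and 2.19 FPKM, erythroid markers at 0.928 and 1.93, endothelial markers at 7.91 and 6.46 and plasma cell markers at 62.3 and 52.0. As for the main markers, the part of these lists in the values of the 9 genes was not tested.

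Set against the summed counts of the 11 CD4 T cell markers, a scale chosen after seeing the data, the 9 genes spread apart. *Foxp3* was at 26.2 and 26.6 counts per 1000 marker counts with DMSO and 15.8 and 17.0 with the inhibitor. *Gpr83* was at 6.91 and 7.24 against 2.14 and 1.60, and *Ikzf4* at 32.5 and 32.2 against 22.0 and 25.9. These 3 genes stayed below their DMSO values on that scale without overlap, and *Itgb8* did so narrowly, at 3.17 and 3.42 against 3.00 and 2.84. *Ebi3* (34.2 and 34.1 against 104 and 101), *Lrrc32* (18.6 and 15.3 against 41.1 and 40.7), *Ikzf2* (17.4 and 15.7 against 28.4 and 26.9) and *Il10* (4.94 and 5.50 against 7.91 and 7.09) were above. *Nrp1* overlapped, at 3.60 and 4.30 against 5.97 and 4.14. Per 1000 counts of *Cd4* alone, *Foxp3* was at 213 and 220 with DMSO and 75.9 and 84.0 with the inhibitor, close to the change in its CPM. On the *Cd4* scale *Ikzf2* overlapped, at 141 and 130 against 136 and 133. *Il10* (40.1 and 45.5 against 37.9 and 35.1) and *Nrp1* (29.2 and 35.6 against 28.6 and 20.5) were lower without overlap. *Ebi3* and *Lrrc32* stayed higher there, and *Ikzf4*, *Itgb8* and *Gpr83* lower. The placing of *Ikzf2*, *Il10* and *Nrp1* thus depended on the reference counts used. In the replicate 1 pair *Foxp3* stood at 8.47 and 9.12 FPKM per 1000 FPKM of the markers.

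A list of 28 surface and effector genes of regulatory T cells, many of which activated conventional T cells also express, was measured beside the 9 genes. Of these, 20 were lower (18 with at least 10 counts asked of every library) and 4 were higher (3 with DESeq2). The median log2 fold change was −1.12, beside 0.01 over all genes and −1.20 over the 11 CD4 T cell markers. The part of that marker shift in the values of this list was not tested. *Il2ra*, which encodes CD25, was at 963 CPM in both DMSO libraries and at 367 and 429 CPM in the inhibitor libraries, a log2 fold change of −1.27. *Ctla4* was at 256 and 245 CPM against 72.8 and 89.7 CPM, a log2 fold change of −1.62. The falls of these receptor genes were of the order of that of *Foxp3*. *Izumo1r*, which encodes folate receptor 4, fell from 262 ± 5.57 to 19.7 ± 5.72 CPM (n = 2 per group, SD), and *Penk*, the proenkephalin gene, fell from 26.1 ± 0.751 to 1.96 ± 0.0643 CPM. *Tnfrsf1b*, encoding TNF receptor 2, rose from 108 ± 3.64 to 254 ± 5.60 CPM and *Swap70* from 224 ± 9.24 to 330 ± 7.08 CPM. In the replicate 1 pair the median log2 ratio of the list was 0.44, with *Il2ra* at 384 FPKM with DMSO and 237 with the inhibitor, *Ctla4* at 84.9 and 112 FPKM and *Penk* at 43.2 and 282 FPKM. *Penk*, like *Gpr83*, was thus lower with the inhibitor in replicates 2 and 3 and higher in the replicate 1 pair.

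Of 33 genes known to induce or assist Foxp3, 17 were lower and 10 were higher, with a median log2 fold change of −0.15. *Il2*, the cytokine that sustains *Foxp3*, was at 46.3 and 56.8 CPM with DMSO and at 11.9 and 17.9 CPM with the inhibitor (log2 fold change −1.80), but at 6.04 and 71.1 FPKM in the replicate 1 pair. *Tgfb1*, described above, was next among the falls, close to *Gata3* (−1.09) and *Nfatc2* (−1.08), and *Tgfbr2*, its receptor gene, rose from 127 ± 1.18 to 236 ± 9.51 CPM (n = 2 per group, SD), with *Creb1* rising from 86.5 ± 2.78 to 148 ± 8.38 CPM but at 12.2 and 11.0 FPKM in the replicate 1 pair. Over that pair the list had a median log2 ratio of 0.12. *Il2* thus went the same way as *Foxp3* in replicates 2 and 3, and the receptor gene *Tgfbr2* the opposite way. *Runx1* and *Cbfb*, whose products bind Foxp3, did not pass the test, at log2 fold changes of −0.14 (95% interval −0.29 to 0.02) and −0.10 (95% interval −0.24 to 0.03). *Tcf7*, which encodes the transcription factor Tcf1, was at 158 and 164 CPM with DMSO and at 180 and 215 CPM with the inhibitor (log2 fold change 0.29, standard error 0.0794, edgeR adjusted p = 0.00855).

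Chromatin regulators that act on the *Foxp3* locus were tested as 17 genes, of which 9 were lower and 3 were higher, with a median log2 fold change of −0.24. *Tet1* and *Tet2*, encoding enzymes that demethylate DNA, rose from 7.54 ± 1.62 to 19.7 ± 0.678 CPM and from 96.6 ± 4.49 to 158 ± 10.4 CPM (n = 2 per group, SD). *Dnmt3a*, encoding a DNA methyltransferase, fell from 272 ± 0.877 to 140 ± 7.39 CPM, and *Kat5*, encoding an acetyltransferase of Foxp3, fell from 46.6 ± 0.943 to 27.0 ± 0.418 CPM. Their relatives did not all follow, as seen after the values were known. *Tet3*, at 217 and 208 CPM with DMSO and 215 and 205 CPM with the inhibitor, had overlapping groups (log2 fold change −0.02, 95% interval −0.14 to 0.11), and *Dnmt3b*, at 8.80 and 9.12 against 9.52 and 9.14 CPM, did not pass the test either (0.06, 95% interval −0.22 to 0.34). The list had a median log2 ratio of −0.15 in the replicate 1 pair. The 8 lists share genes, since *Tgfb1* and *Il27ra* stand in 2 lists each and 5 of the 9 genes in 1 list each, and no test of a list was run.

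**Figure D3:**
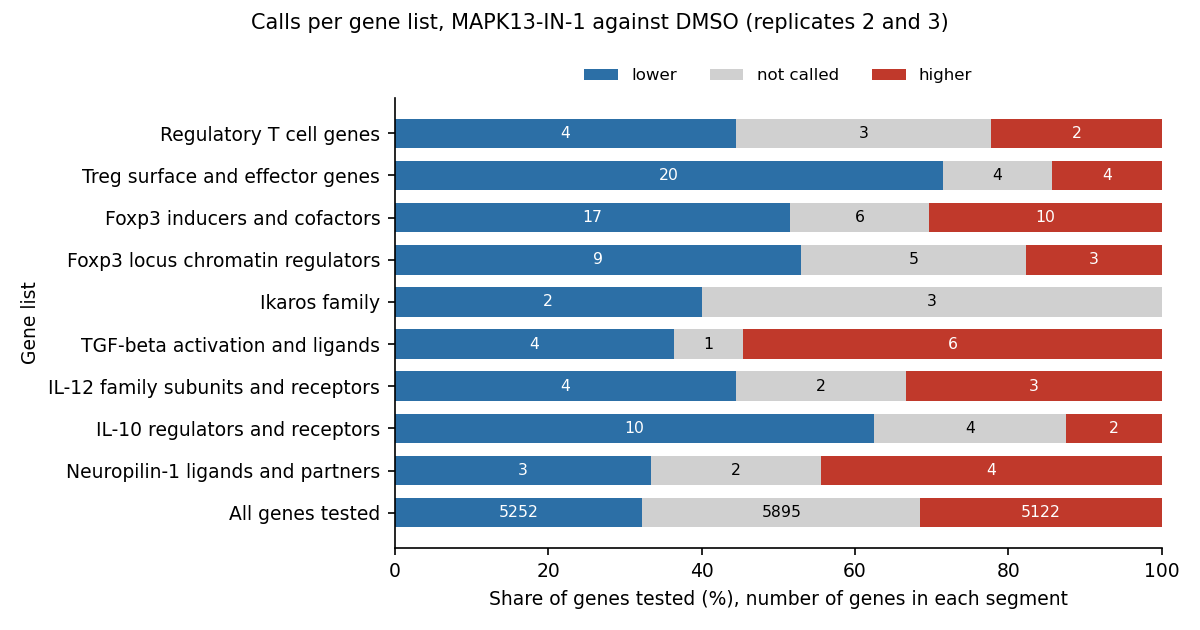
Share of tested genes called lower (blue), not called (gray) or higher (red) with MAPK13-IN-1 against DMSO in replicates 2 and 3, for the 9 genes, 8 lists and all 16269 genes, with the number of genes in each segment. The surface and effector list has 20 of 28 genes lower, while all genes are split into 5252 lower and 5122 higher.

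The genes with the profile most like *Foxp3* were sought over all 6 libraries, by the root mean square difference in log2 expression centred within each set of libraries, among 11634 genes expressed in both sets. The 5 closest were *Ppip5k1* (0.0169), *Cish* (0.0251), *Def6* (0.0254), *Ints6* (0.0368) and *Socs1* (0.0392). *Cish* was at 382 and 403 CPM with DMSO and 135 and 165 CPM with the inhibitor, and at 146 and 161 FPKM in the replicate 1 pair. *Ppip5k1*, the closest, was at 32.5 and 32.6 against 11.0 and 12.8 CPM, and at 3.68 and 4.04 FPKM. *Socs1*, the fifth, was at 92.6 and 103 against 35.2 and 39.7 CPM, and at 71.9 and 79.1 FPKM. These genes were picked for this likeness over the same libraries, so it is a description. Among the other 8 genes, *Ikzf4* (0.232) and *Itgb8* (0.243) were nearest to *Foxp3*, and *Lrrc32* (0.853) and *Ebi3* (0.954) were the farthest.

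Promoter windows in RefSeq (GRCm38.p6, 250 bases before to 50 after a start) matched 5 of the 9 genes by symbol, *Foxp3* with 2 windows and *Nrp1*, *Itgb8*, *Gpr83* and *Ebi3* with 1 each, and the others are *Ikzf2*, *Ikzf4*, *Lrrc32* and *Il10*. Both strands were searched for CTTTGNT (TCF/LEF core), TTCNNNGAA (STAT), TGTGGT (RUNX core), TGANTCA (AP-1) and GTAAACA (forkhead). Of all 32851 windows, these letters were held by 18.6%, 8.3%, 16.8%, 7.81% and 3.65%. Both *Foxp3* windows held CTTTGNT, and the other 4 windows held none of the 5 motifs. The *Foxp3* windows are shown because these letters are bound by Tcf1, whose gene *Tcf7* is given above, and by STAT5, a known driver of *Foxp3*, and capitals mark the matches. In the window of chrX:7579426-7579725 (plus strand) all 3 matches are to CTTTGNT on the opposite strand, and in chrX:7580233-7580532 (plus strand) the first is to TTCNNNGAA and the second to CTTTGNT on the opposite strand.
Foxp3, chrX:7579426-7579725: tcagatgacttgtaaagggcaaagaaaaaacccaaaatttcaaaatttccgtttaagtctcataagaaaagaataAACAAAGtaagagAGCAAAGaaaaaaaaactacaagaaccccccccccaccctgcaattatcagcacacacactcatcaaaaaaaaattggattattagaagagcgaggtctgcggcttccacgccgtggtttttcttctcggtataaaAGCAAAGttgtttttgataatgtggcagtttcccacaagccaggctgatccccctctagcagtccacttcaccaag
Foxp3, chrX:7580233-7580532: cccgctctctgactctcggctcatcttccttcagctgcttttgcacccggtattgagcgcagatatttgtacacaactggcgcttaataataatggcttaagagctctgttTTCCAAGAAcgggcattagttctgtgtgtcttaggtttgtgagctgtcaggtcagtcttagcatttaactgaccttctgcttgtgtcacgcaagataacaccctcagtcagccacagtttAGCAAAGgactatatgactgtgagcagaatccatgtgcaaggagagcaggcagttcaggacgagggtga
A match describes letters and shows no binding, and a window without a match says only that these letters are not in it.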

How the data were processed

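RNA of CD4+ T cells was measured in 3 libraries per group, and samples were grouped by their labels. For replicates 2 and 3 the authors deposited whole-number counts per gene, not normalized. The submitters' processing notes name fastp 0.21.0, HISAT2 2.1.0, StringTie 2.1.5 and DESeq2 1.30.1 with mm10. For the replicate 1 pair the authors deposited values read here as FPKM, a unit inferred from the values (sums of 405150 and 390729), and the notes name FastQC and HISAT2 with GRCm38.

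Counts were compared with edgeR 4.0.16 in R 4.3.3, by glmQLFit and glmQLFTest on 2 libraries per group, with TMM scaling (factors 0.960, 0.955, 1.05 and 1.04), filterByExpr at a minimum count of 10, no covariates and Benjamini-Hochberg adjustment over 16269 genes. The script was tested on simulated data. Log2 ratios of the replicate 1 pair used a pseudocount of 1. Exon lengths and positions came from GENCODE M21.

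The 9 genes, the 8 lists and the marker lists were chosen with earlier results of these data known. From each list at most 4 genes are named, the 2 largest rises and the 2 largest falls among called genes with at least 1 CPM, plus partners of the 9 genes and well-known genes of a list, named after the data were seen; 1 gene picked by this rule is not reported here. The 5 genes nearest to *Foxp3* were taken among genes with at least 1 CPM and 0.5 FPKM. The closing section gives the effect of other scalings, filters, thresholds, DESeq2 1.42.0, a replicate block and left-out libraries.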

Additional observations from a re-analysis of the deposited data

Results flagged for a closer look

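5 of the 9 genes were lower with the inhibitor in both same-numbered pairs of replicates 2 and 3 with TMM scaling and higher in the replicate 1 pair. The log2(FPKM + 1) ratio in the replicate 1 pair was 0.10 for *Foxp3*, against a log2 fold change of −1.44 in replicates 2 and 3. For *Ikzf4* it was 0.76 against −1.18, and for *Gpr83* 0.81 against −2.68. *Nrp1* stood at 2.23 against −0.41 and *Il10* at 0.75 against −0.23, 2 genes that did not pass the test in replicates 2 and 3 and that, by library totals alone, were slightly higher with the inhibitor in the replicate 2 pair. The difference between the 2 sets of libraries was not tested, since the replicate 1 pair has 1 library per group and was normalized separately.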

How the results depend on the processing

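The 6 called genes kept their direction and their call in all 11 settings with the same threshold, with a highest adjusted p of 0.00724 (*Lrrc32* without DMSO replicate 3, from edgeR's quasi-likelihood test). In 4 of these settings 1 library was left out, and the lone library of its group is assumed to vary like those of the other group. Of 99 pairs of gene and setting, 88 gave the same call and direction as the reported fit. The exceptions were *Nrp1* and *Ikzf2*. *Nrp1* passed with no filter on low counts (−0.41, adjusted p = 0.0337 from edgeR), and with libraries left out in turn its log2 fold change ranged from −0.62 to −0.23. *Ikzf2*, never called, changed sign with RLE normalization (0.0026), upper quartile normalization (0.0693), library totals (0.11), at least 10 counts in every library (0.0336) and DESeq2 (0.0026), and ranged from −0.076 to 0.033 with libraries left out; the cause was not tested. Scaling by library totals moved the median log2 fold change of all genes from 0.01 to 0.14. Requiring an absolute log2 fold change over 1 left 3799 genes called, 1686 lower and 2113 higher, and 3 of the 9 genes lower and 0 higher.

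With the replicate number as a replicate block, *Nrp1* passed (log2 fold change −0.41, adjusted p = 0.0229 from edgeR) and 10645 genes were called in place of 10374; no other call among the 9 genes changed. Deviations of same-numbered libraries correlated at 0.005 over 16269 genes, so no shared effect of the replicate number was seen. That value cannot show whether same-numbered samples had a common origin, which the labels do not give.

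Per CD4 T cell marker count, chosen after seeing the data, log2 ratios were −0.69 (*Foxp3*), −0.43 (*Ikzf4*), −0.17 (*Itgb8*), −1.92 (*Gpr83*), 1.27 (*Lrrc32*) and 1.59 (*Ebi3*), and turned positive for *Ikzf2* (0.74), *Nrp1* (0.36) and *Il10* (0.52). Per count of *Cd4* alone they were −0.01 for *Ikzf2*, −0.40 for *Nrp1* and −0.23 for *Il10*. In the replicate 1 pair only *Itgb8* changed sign, to 0.0221 with both libraries rescaled to the same sum; a pseudocount of 0.1 changed none.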
